A study of Mus musculus with 8 samples.

Results

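The 5 genes described here are the CXC chemokine genes Cxcl1, Cxcl2, Cxcl3 and Cxcl16 and the chemokine receptor gene Cxcr4, in cultured mouse microglia, macrophages that live in the brain. Members were the probes whose RefSeq accession maps to one of these 5 symbols, and each gene had 1 probe. They are 5 of 55681 probes on the array and 5 of the 19120 genes tested. All 5 passed the filter on dim probes, which asked for both arrays of some treatment to be well above background. Cxcl1 passed it through the 2 fragment groups only.

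Primary microglia of C57BL/6 mice were treated for 3 h with 1 of 4 agents, and total RNA was labelled with Cy3 and hybridised singly to 8 Agilent arrays, so that each treatment had 2. The first group received a fusion of Fc, the constant part of an antibody, with residues 133 to 148 of Ecrg4, called Ecrg4(133-148) below. The second received Fc fused with residues 71 to 132, called Ecrg4(71-132). The third received Fc alone, and these 3 proteins were all given at 20 µg/ml. The fourth received PBS, with no protein. Ecrg4 is a secreted protein whose precursor is cut into smaller fragments. All groups shared the strain and the time, and the labels name 1 array of each treatment as set 1 and the other as set 2. Whether a set was its own culture or its own mice is not stated, and the p-values below measure only the spread between these samples, which may be technical. The age and sex of the mice, and the way the cells were isolated, were not given in the sources used here.

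Signals are log2 values of the scanner's background-subtracted intensity relative to the 75th percentile of the same array, so 0 is the level of that percentile and a step of 1 is a doubling. Between 24243 and 29474 probes were well above background on each array, and no spot was saturated. The sets stood apart: arrays of different treatments within set 1 correlated across genes at 0.994 to 0.997 and within set 2 at 0.975 to 0.990, whereas the 2 arrays of a treatment correlated at 0.953 to 0.962. Of 10 microglia and macrophage markers, 9 were well above background on all 8 arrays. The fractalkine receptor gene Cx3cr1, a defining microglial marker, stood at 4.58 to 4.71 in set 1 and at -3.25 to -0.74 in set 2. Each gene is therefore given by set, and group means carry the set difference in their SD.

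Chemokines are small secreted proteins that bind G-protein-coupled receptors on leukocytes and draw the cells up a concentration gradient. CXCL1, CXCL2 and CXCL3 bind CXCR2 and are the main attractants of mouse neutrophils, made quickly by macrophages and microglia after inflammatory signals, largely through NF-kB. CXCL16 is made as a membrane protein that can be shed, binds CXCR6 and attracts mainly T cells. CXCR4 is the receptor for CXCL12 and holds neutrophils in the bone marrow. The name of neutrophil attractant thus belongs to the first 3 genes only.

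The sequences just upstream of the members are shown because the 3 CXCR2 ligand genes, whose signals are compared below, share a stretch there. RefSeq promoter windows on build GRCm38.p6 were found for 4 of the 5 members, and Cxcl16 had none in the table used. Each line gives the 250 bases before the annotated start, 5' to 3' on the strand of the gene, at chr5:90890995-90891244 (plus strand) for Cxcl1, chr5:90903649-90903898 (plus) for Cxcl2, chr5:90785851-90786100 (plus) for Cxcl3 and chr1:128592300-128592549 (minus) for Cxcr4. Capitals mark the longest run of bases found in all 3 ligand promoters.
Cxcl1: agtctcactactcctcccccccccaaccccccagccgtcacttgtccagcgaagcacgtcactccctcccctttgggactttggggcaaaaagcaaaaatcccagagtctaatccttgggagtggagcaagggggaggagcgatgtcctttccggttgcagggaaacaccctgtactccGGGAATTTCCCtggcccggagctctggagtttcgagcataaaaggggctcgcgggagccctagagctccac
Cxcl2: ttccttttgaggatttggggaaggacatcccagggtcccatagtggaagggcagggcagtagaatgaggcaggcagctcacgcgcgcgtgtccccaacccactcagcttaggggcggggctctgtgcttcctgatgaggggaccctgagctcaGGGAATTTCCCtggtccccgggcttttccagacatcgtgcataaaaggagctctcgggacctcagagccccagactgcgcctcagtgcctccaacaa
Cxcl3: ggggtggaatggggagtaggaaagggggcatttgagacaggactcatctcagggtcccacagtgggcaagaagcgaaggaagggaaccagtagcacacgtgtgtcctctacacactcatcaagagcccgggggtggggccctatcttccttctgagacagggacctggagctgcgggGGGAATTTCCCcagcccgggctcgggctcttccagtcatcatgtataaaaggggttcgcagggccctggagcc
Cxcr4: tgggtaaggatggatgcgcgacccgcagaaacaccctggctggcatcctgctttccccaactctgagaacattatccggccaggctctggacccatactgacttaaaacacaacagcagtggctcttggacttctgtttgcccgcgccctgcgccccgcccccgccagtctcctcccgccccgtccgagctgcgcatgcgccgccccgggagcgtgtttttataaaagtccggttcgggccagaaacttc
The run is 11 bases long, reads GGGAATTTCCC and begins 71 bases before the start in Cxcl1, 97 in Cxcl2 and 73 in Cxcl3. It holds a match to the NF-kB consensus on each strand, the 2 matches overlapping. That consensus was searched for on both strands and occurred in 2382 of 32851 mouse promoter windows of the same length (7.25%), and the full run occurred in 14 of them (0.0426%), belonging to 14 of 27025 genes. The run was picked after the sequences were seen, and the 14 genes include Cxcl1, Cxcl2 and Cxcl3, which defined it. Over the whole windows, the run included, the share of identical aligned positions was 48.9% between Cxcl1 and Cxcl2, 50% between Cxcl1 and Cxcl3 and 54.7% between Cxcl2 and Cxcl3, against 45.0% to 45.7% between each of them and Cxcr4. The AP-1 motif TGANTCA was in none of the 4 windows and in 6.75% of all windows. TTNNGNAA, a C/EBP motif, was in the Cxcl2 and Cxcr4 windows and in 36.8% of all. TATAAA was in the Cxcl3 and Cxcr4 windows and in 12.4% of all. These matches describe letters in a window and are not evidence of binding.

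**Figure D1:**
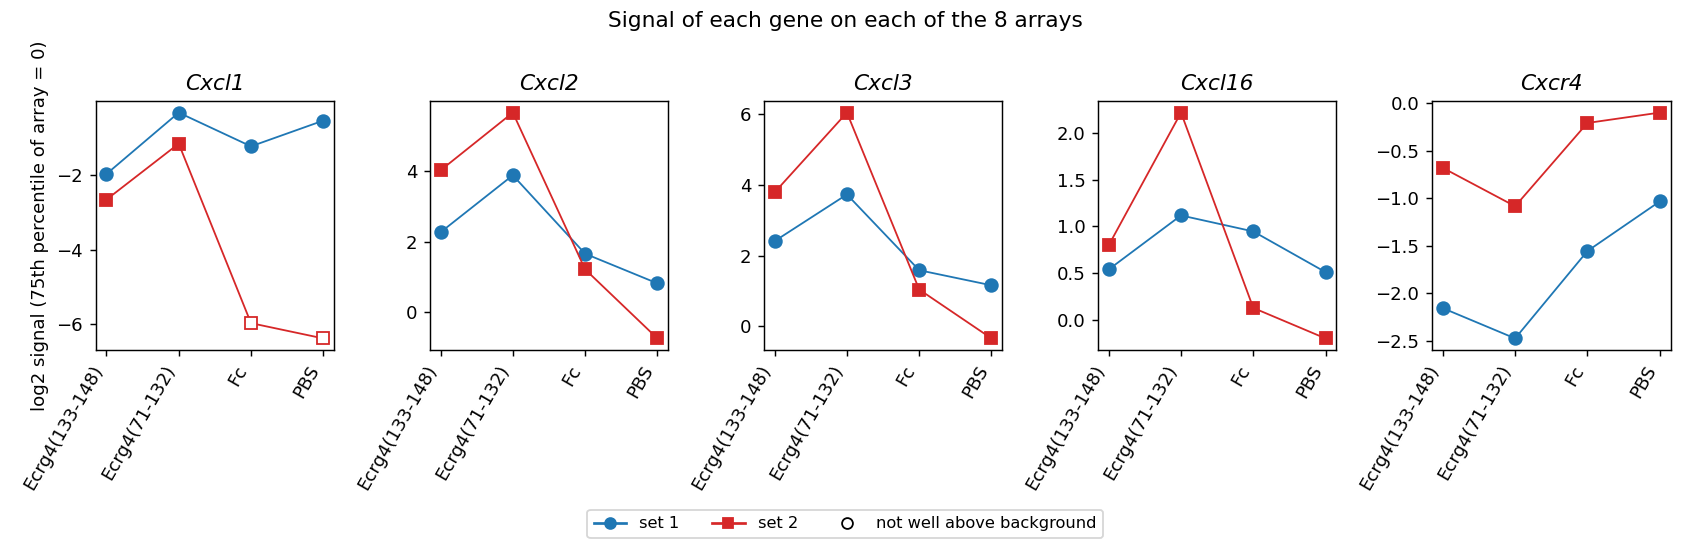
Signal of each of the 5 genes (vertical axis, log2 relative to the 75th percentile of the array, scaled separately for each gene) on each of the 8 arrays, with treatments along the horizontal axis. Circles are set 1, squares are set 2, and open symbols are arrays on which the probe was not well above background. Cxcl2 and Cxcl3 peak with Ecrg4(71-132) in both sets, Cxcr4 is lowest there in both sets, and the Fc and PBS arrays of set 2 have no Cxcl1 signal well above background.

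Cxcl2 and Cxcl3 had their highest signal with Ecrg4(71-132) in both sets, a lower one with Ecrg4(133-148), then Fc, then PBS. In set 1, Cxcl2 stood at 2.27 with Ecrg4(133-148), 3.89 with Ecrg4(71-132), 1.66 with Fc and 0.81 with PBS. In set 2 it stood at 4.03 with Ecrg4(133-148), 5.67 with Ecrg4(71-132), 1.21 with Fc and -0.75 with PBS. The arrays of either fragment lay above every Fc and PBS array, and the arrays of the 2 fragments overlapped each other. As group means, Cxcl2 was 3.15 ± 1.24 with Ecrg4(133-148), 4.78 ± 1.26 with Ecrg4(71-132), 1.43 ± 0.31 with Fc and 0.03 ± 1.11 with PBS (SD, n = 2 each).

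Cxcl3, whose product shares the CXCR2 receptor with CXCL2, followed the same order. In set 1 it stood at 2.41 with Ecrg4(133-148), 3.72 with Ecrg4(71-132), 1.59 with Fc and 1.16 with PBS. In set 2 the values were 3.78 with Ecrg4(133-148), 6.03 with Ecrg4(71-132), 1.04 with Fc and -0.34 with PBS. The fragment arrays again lay above every Fc and PBS array, and the fragments overlapped. The group means were 3.09 ± 0.97 with Ecrg4(133-148), 4.88 ± 1.63 with Ecrg4(71-132), 1.31 ± 0.38 with Fc and 0.41 ± 1.06 with PBS (SD, n = 2 each).

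Against Fc, the carrier control, Cxcl2 was higher with Ecrg4(71-132) by 4.69-fold in set 1 and 21.9-fold in set 2, and Cxcl3 by 4.40-fold and 31.8-fold. The fitted log2 difference was 3.34 (SE 0.92) for Cxcl2 and 3.56 (SE 0.96) for Cxcl3. With Ecrg4(133-148) the distance from Fc was smaller: Cxcl2 was 1.53-fold higher in set 1 and 7.03-fold higher in set 2, and Cxcl3 1.77-fold and 6.69-fold. Neither gene passed limma's test across all 19120 genes in any of these 4 comparisons, with adjusted p-values of 1. With the set as a block in the limma fit, adjusted p-values with Ecrg4(71-132) were 0.226 for Cxcl2 and 0.225 for Cxcl3. With Ecrg4(133-148) they were 0.836 for both. With 2 arrays against 2, an exact two-sided permutation test cannot give a p-value below 0.333, so none is reported. In bulk RNA, fewer cells making a transcript and less of it per cell cannot be told apart.

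Both genes were also higher with Fc than with PBS in each set, Cxcl2 by 1.79-fold in set 1 and 3.90-fold in set 2 and Cxcl3 by 1.34-fold and 2.60-fold. The log2 difference of Fc from PBS was 1.40 (SE 0.92) for Cxcl2 and 0.90 (SE 0.96) for Cxcl3, with limma adjusted p-values of 1. The 2 Fc arrays lay above both PBS arrays for Cxcl2, while for Cxcl3 they overlapped, with the lower Fc array at 1.04 and the higher PBS array at 1.16. Distances from PBS therefore exceed those from Fc. With Ecrg4(71-132), Cxcl2 was 8.41-fold above PBS in set 1 and 85.6-fold in set 2, and Cxcl3 5.91-fold and 82.8-fold, with limma adjusted p-values of 0.926 for both. With Ecrg4(133-148), Cxcl2 was 2.73-fold and 27.4-fold above PBS and Cxcl3 2.37-fold and 17.4-fold, with limma adjusted p-values of 1. With the set as a block, limma adjusted p-values against PBS were 0.133 for Cxcl2 and 0.136 for Cxcl3 with Ecrg4(71-132). With Ecrg4(133-148) they were 0.539 and 0.546. The comparisons with Fc share their fragment arrays with those against PBS and are not independent of them.

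Cxcl1, the CXCR2 ligand also known as KC, was well above background on 6 of 8 arrays. In set 1 it stood at -1.98 with Ecrg4(133-148), -0.34 with Ecrg4(71-132), -1.24 with Fc and -0.55 with PBS. In set 2 it stood at -2.66 with Ecrg4(133-148) and -1.17 with Ecrg4(71-132), while the Fc array (-5.96) and the PBS array (-6.37) were not well above background. The lowest signal well above background was -4.16 on that Fc array and -5.08 on that PBS array. In set 1 Ecrg4(71-132) was highest and Ecrg4(133-148) lowest, whereas in set 2 both fragments were above both controls.

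Because of those 2 arrays, folds of Cxcl1 against the controls of set 2 are bounds, taken against the lowest signal well above background. In set 2 Cxcl1 was at least 7.92-fold higher with Ecrg4(71-132) than with Fc and at least 15.0-fold higher than with PBS. It was at least 2.81-fold higher with Ecrg4(133-148) than with Fc and at least 5.33-fold higher than with PBS. These bounds belong to signals with no offset. On the log2 scale they are 2.99, 3.91, 1.49 and 2.41, whereas normexp, a background correction run here on the median signals with an offset of 50 added, gave 2.12, 2.34, 1.07 and 1.29 for the same 4 differences. In set 1, with every array measured, Ecrg4(71-132) was 1.87-fold above Fc and 1.16-fold above PBS, and Ecrg4(133-148) was 1.67-fold below Fc and 2.69-fold below PBS. Fc was 1.61-fold below PBS in set 1, and no fold is given in set 2, where both were dim. The fitted log2 differences from Fc, 1.28 for Ecrg4(133-148) and 2.85 for Ecrg4(71-132) (SE 2.31 each), were within the spread between sets, with limma adjusted p-values of 1. They rest in part on the dim Fc array at its measured signal. With normexp they were 0.23 for Ecrg4(133-148) and 1.44 for Ecrg4(71-132), and with the offset alone added to the processed signal they were 0.26 and 1.51.

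Markers of some other cell types also varied among the set 1 arrays. The astrocyte gene Gfap stood at 1.11 with Ecrg4(133-148), 1.59 with Ecrg4(71-132), 1.14 with Fc and 2.43 with PBS in set 1, and was well above background on 1 array of set 2, that of Ecrg4(133-148). The summed linear signal of 8 astrocyte markers in set 1 was 10.3 with Ecrg4(133-148), 13.2 with Ecrg4(71-132), 10.6 with Fc and 19.8 with PBS, and in set 2 it ranged between 12.5 and 14.5. Of these 8 markers, only 2, Aldh1l1 and Fgfr3, were well above background on all 8 arrays. The sum in set 2 does not follow Gfap, which was dim there on all arrays but that of Ecrg4(133-148), so the markers differ between sets. The sum over 8 endothelial and fibroblast markers in set 1 was 27.7 with Ecrg4(133-148), 37.2 with Ecrg4(71-132), 34.9 with Fc and 53.5 with PBS, against 7.22 to 7.95 in set 2. The collagen gene Col1a1 alone stood at 2.02 to 3.03 in set 1 and at -4.51 to -3.79 in set 2. Both sums were highest with PBS in set 1 and lowest with Ecrg4(133-148), which was also the lowest array of that set for Cxcl1. The sum over 6 neuronal markers ran from 4.16 with Ecrg4(133-148) to 5.44 with PBS in set 1. Other lists varied less there, the 8 oligodendrocyte lineage markers between 42.2, with Ecrg4(71-132), and 44.9 and the 5 T cell markers on the array between 3.01 and 3.18. The order of the set 1 arrays was not that of these 2 sums for Cxcl1, where Ecrg4(71-132) was above PBS. Nor was it for Cxcl2, where PBS was lowest. The part of these cells in the Cxcl1 and Cxcl2 signals was not tested.

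**Figure D2:**
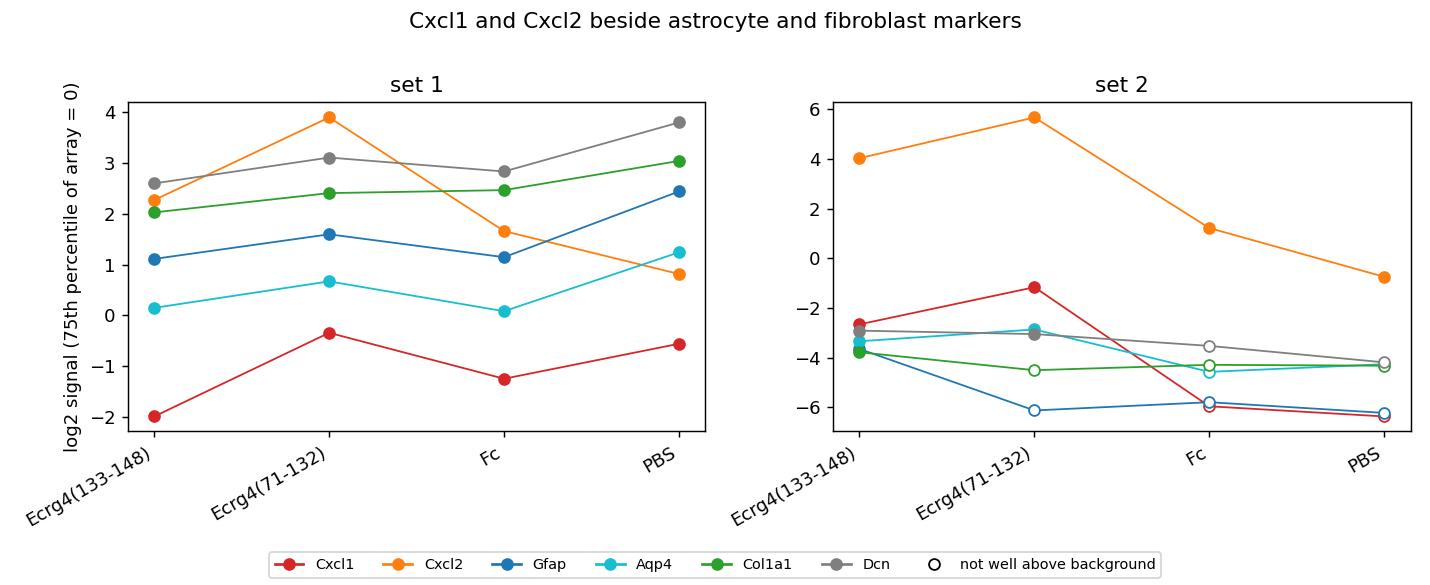
Log2 signal (vertical axis, 75th percentile of the array at 0) of Cxcl1 and Cxcl2 beside the astrocyte markers Gfap and Aqp4 and the fibroblast markers Col1a1 and Dcn, by treatment, in set 1 (left) and set 2 (right, with its own scale). Open symbols were not well above background. In set 1 the 4 markers are highest with PBS, at 2.43 for Gfap and 3.03 for Col1a1. Cxcl2 is lowest there at 0.81, and Cxcl1, at -0.55, is below its Ecrg4(71-132) array at -0.34.

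Cxcl16, the membrane-bound ligand of CXCR6, spanned a narrower range than Cxcl2 and Cxcl3. In set 1 it stood at 0.54 with Ecrg4(133-148), 1.12 with Ecrg4(71-132), 0.95 with Fc and 0.51 with PBS. In set 2 it stood at 0.80 with Ecrg4(133-148), 2.22 with Ecrg4(71-132), 0.12 with Fc and -0.20 with PBS. Ecrg4(71-132) was highest in both sets and its 2 arrays lay above all others, while Ecrg4(133-148) was below Fc in set 1 and above it in set 2. The group means were 0.67 ± 0.18 with Ecrg4(133-148), 1.67 ± 0.78 with Ecrg4(71-132), 0.54 ± 0.58 with Fc and 0.15 ± 0.50 with PBS (SD, n = 2 each). With Ecrg4(71-132), Cxcl16 was 1.13-fold above Fc in set 1 and 4.28-fold in set 2, a fitted log2 difference of 1.13 (SE 0.49, limma adjusted p = 1). Against PBS the difference was 1.52 (SE 0.49, limma adjusted p = 0.956).

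The CXCL16 shedding list held 5 genes, all measured, and none passed limma's test. With Ecrg4(71-132) against Fc, 3 were higher in both sets (28.5% of all genes) and 1 lower (36.4%). Those higher include Timp3, the gene of a protease inhibitor, by 0.11 in set 1 and 0.02 in set 2 on the log2 scale. The list's median log2 difference was 0.06, the value of Timp3, beside -0.02 over all genes tested. Adam10, the protease that releases CXCL16 from the cell surface, stood at 4.44 to 4.81 on all 8 arrays and Adam17, a related sheddase, at -0.41 to -0.04. Rhbdf2, which brings ADAM17 to the cell surface, was higher with Ecrg4(71-132) than with Fc by 0.37 in set 1 and 0.80 in set 2 on the log2 scale. Cxcr6, the gene of the CXCL16 receptor, was well above background on all 8 arrays, at -3.24 to -2.11.

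Cxcr4 ran opposite to Cxcl2 and Cxcl3 in both sets. It did not do so to Cxcl1 and Cxcl16, which with Ecrg4(133-148) in set 1 lay below Fc, as Cxcr4 did. In set 1 it stood at -2.16 with Ecrg4(133-148), -2.47 with Ecrg4(71-132), -1.56 with Fc and -1.04 with PBS. In set 2 it stood at -0.68 with Ecrg4(133-148), -1.09 with Ecrg4(71-132), -0.21 with Fc and -0.10 with PBS. Ecrg4(71-132) was lowest and PBS highest in both sets, and every array of set 2 was above its set 1 counterpart, by 0.93 to 1.47. That offset between the sets exceeded the largest distance between Ecrg4(71-132) and Fc, so the groups overlapped for all comparisons but Ecrg4(71-132) against PBS.

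Within the sets, Cxcr4 was 1.89-fold lower with Ecrg4(71-132) than with Fc in set 1 and 1.83-fold lower in set 2, and 1.52-fold and 1.39-fold lower with Ecrg4(133-148). Against PBS it was 2.71-fold and 1.98-fold lower with Ecrg4(71-132) and 2.18-fold and 1.5-fold lower with Ecrg4(133-148). For Ecrg4(71-132) against Fc the fitted log2 difference was -0.90, with an SE of 0.80 when arrays were taken as independent and 0.15 with the set as a block. The blocked limma fit gave an adjusted p of 0.205 against Fc and 0.111 against PBS, so Cxcr4 did not pass the test in either fit. Cxcr4 was the only member whose folds with Ecrg4(71-132) and with Ecrg4(133-148) against Fc were no larger in set 2 than in set 1.

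Of the CXCR4 partners and desensitisation list, 13 of 14 genes were measured, and none passed limma's test. With Ecrg4(71-132) against Fc, 2 were higher in both sets (28.5% of all genes) and 6 lower (36.4%). The list's median log2 difference was -0.01, beside -0.02 over all genes. Rgs2, which encodes a protein that shortens G-protein signalling, stood at 4.96 with Ecrg4(133-148), 3.93 with Ecrg4(71-132), 4.90 with Fc and 5.01 with PBS in set 1, and at 4.12, 2.71, 4.85 and 5.29 in the same order in set 2. Rgs16, of the same family, was higher with Ecrg4(71-132) than with Fc by 0.90 in set 1 and 2.46 in set 2 on the log2 scale. The CXCR4 ligand gene Cxcl12 was well above background on the 4 arrays of set 1, at -3.33 to -2.82, and in set 2 on that of Ecrg4(71-132) alone, at -1.56. Cxcl12 thus passed the filter on dim probes through Ecrg4(71-132) only, and nothing is read from its place among the 2 higher genes. Ackr3, a second receptor for CXCL12, was well above background in set 1 only, at -1.86 to -0.64.

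**Figure D3:**
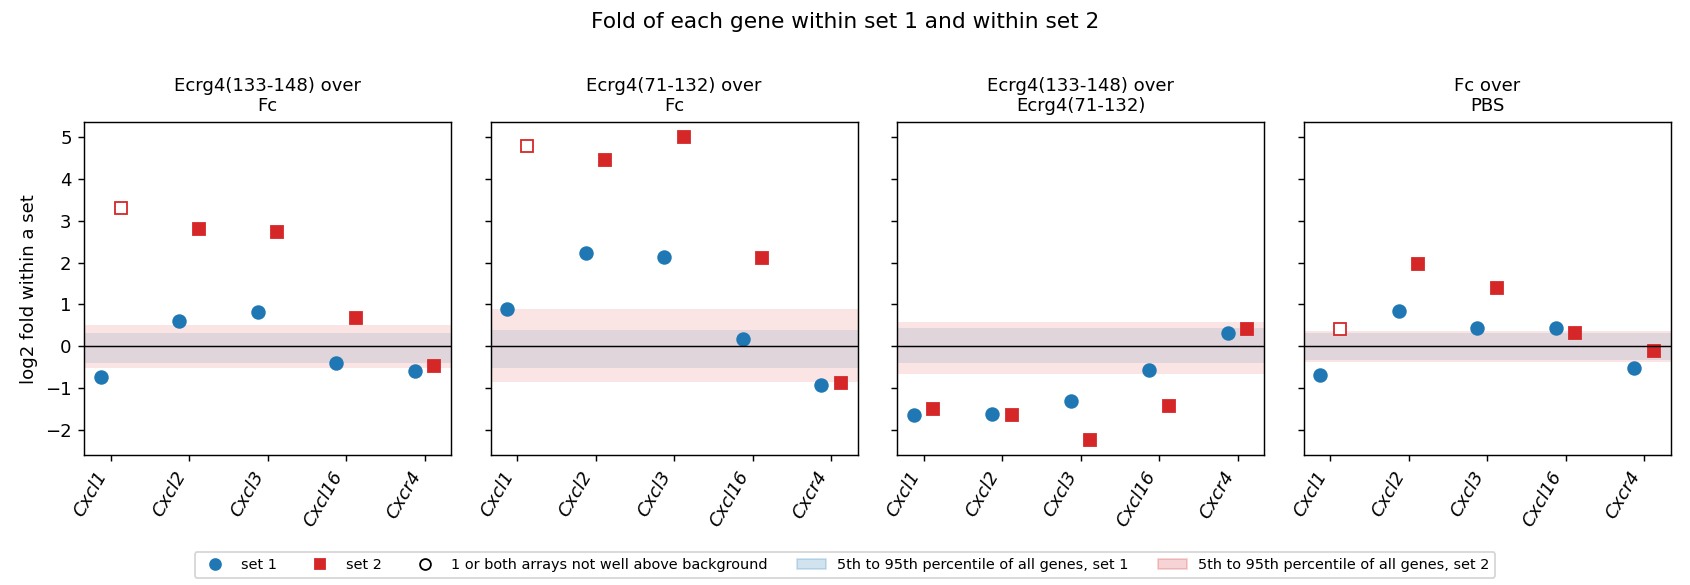
Log2 fold of each member within set 1 (circles) and set 2 (squares) in 4 comparisons. Open symbols rest on 1 or 2 arrays that were not well above background and are not measured folds, and the shaded bands span the 5th to 95th percentile of all 19120 genes in each set. With Ecrg4(71-132) over Fc, Cxcl2 lies at 2.23 in set 1 and 4.45 in set 2 and Cxcr4 at -0.92 and -0.88.

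Counted over the members, 4 of 5 were higher and 1 lower with Ecrg4(71-132) than with Fc in both sets, where 28.5% of all genes were higher and 36.4% lower in both. Cxcl2 and Cxcl3 were over 2-fold higher in both sets, against 0.465% of all genes. The shares over all genes use signals as measured, dim arrays included, and for Cxcl1 in set 2 the direction is that of the bound. For Cxcl2, Cxcl3 and Cxcl16 both Ecrg4(71-132) arrays lay above both Fc arrays, against 10.6% of all genes. They did so for Cxcl1 too, but it was kept through its fragment arrays. Nothing is therefore read from its separation from a control, or from its direction against one in the counts. None of the 5 passed limma's test in any of the 6 comparisons, and 0% of the 19120 genes did. At an unadjusted limma p under 0.05 there were 644 genes (3.37% of all) for Ecrg4(71-132) against Fc and 88 (0.46%) for Ecrg4(133-148) against Fc. There were 141 (0.737%) between the fragments and 51 (0.267%) for Fc against PBS. The same counts with the set as a block were 3559 (18.6%), 1006 (5.26%), 1210 (6.33%) and 355 (1.86%), again with no gene past the adjusted threshold.

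With Ecrg4(133-148) against Fc, Cxcl2 and Cxcl3 were higher in both sets, as were 28.5% of all genes, Cxcr4 was lower in both (30.6% of all genes), and Cxcl1 and Cxcl16 went opposite ways in the 2 sets (41.0% of all genes). No member was over 2-fold higher in both sets, against 0.0523% of all genes. The arrays did not overlap for Cxcl2 and Cxcl3, against 7.60% of all genes. Fc was above PBS in both sets for Cxcl2, Cxcl3 and Cxcl16 (39.6% of all genes), below it for Cxcr4 (16.7%) and non-overlapping for Cxcl2 alone (7.25%). Cxcl1 had no direction there in set 2, where both arrays were dim. No member was over 2-fold higher with Fc than with PBS in both sets, against 0.0418% of all genes.

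Against PBS, Cxcl2 and Cxcl3 were over 2-fold higher in both sets with Ecrg4(133-148), against 0.131% of all genes, and with Ecrg4(71-132), against 0.722%. With Ecrg4(133-148), 3 members were higher than with PBS in both sets (36.3% of all genes), Cxcr4 was lower (23.8%) and Cxcl1 went opposite ways (39.9%), and 3 members had non-overlapping arrays with the fragment higher (11.5%). With Ecrg4(71-132), the 4 chemokines were higher in both sets (34.3%) and Cxcr4 was lower (31.5%). Cxcl1 was kept through its fragment arrays, so nothing is read from its direction against PBS with either fragment. The arrays did not overlap for Cxcl2, Cxcl3 and Cxcl16, all higher (14.2%), nor for Cxcr4, lower (10.5%).

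Set directly against each other, the fragments differed in the same direction in both sets for all 5 members. With Ecrg4(133-148) than with Ecrg4(71-132), all 4 chemokine genes were lower in both sets (23.7% of all genes) and Cxcr4 was higher in both (33.5%). Cxcl1 was 3.12-fold lower in set 1 and 2.82-fold in set 2, Cxcl2 3.08-fold and 3.12-fold, Cxcl3 2.49-fold and 4.76-fold and Cxcl16 1.49-fold and 2.68-fold. Cxcl1, Cxcl2 and Cxcl3 were thus over 2-fold lower in both sets, against 0.413% of all genes, and the arrays were non-overlapping for Cxcl1 and Cxcl16, against 6.49%. This is the comparison in which Cxcl1 was measured on every array, and its folds in the 2 sets were close. The fitted log2 differences were -1.57 for Cxcl1 (95% interval -7.39 to 4.25), -1.63 for Cxcl2 (-3.94 to 0.68), -1.78 for Cxcl3 (-4.20 to 0.63), -1.0 for Cxcl16 (-2.24 to 0.24) and 0.36 for Cxcr4 (-1.66 to 2.38), with limma adjusted p-values of 1. These intervals hold both no difference and differences larger than those measured. Their spread is pooled over all 4 groups. For Cxcl1 the SD was 3.34 with Fc and 4.11 with PBS, each with a dim array, against 0.48 with Ecrg4(133-148) and 0.59 with Ecrg4(71-132). With the set as a block the interval narrowed to -5.56 to 2.43 for Cxcl1 and -0.03 to 0.75 for Cxcr4. It widened for Cxcl2, Cxcl3 and Cxcl16.

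The order of the 4 treatments was the same in both sets for Cxcl2, Cxcl3 and Cxcr4. The descending order Ecrg4(71-132), Ecrg4(133-148), Fc, PBS held in both sets for Cxcl2 and Cxcl3, and for 4.61% of all genes. Its exact reverse held in both sets for Cxcr4, and for 2.48% of all genes. Cxcl16 had the same order as Cxcl2 in set 2 (15.1% of all genes) but not in set 1 (12.3%). Cxcl1 in set 2 had Ecrg4(71-132) above Ecrg4(133-148) and both above the controls, whose own order could not be read. In set 1 Cxcl1 ran in the descending order Ecrg4(71-132), PBS, Fc, Ecrg4(133-148), and Cxcl16 in the order Ecrg4(71-132), Fc, Ecrg4(133-148), PBS. By group mean, neighbouring treatments whose arrays did not overlap were Ecrg4(133-148) and Fc for Cxcl2 and Cxcl3, Fc and PBS for Cxcl2, and the 2 fragments for Cxcl1 and Cxcl16. Apart from Fc and PBS for Cxcl1, all other neighbours in the order of means overlapped, and for Cxcr4 every pair of neighbours did.

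Cxcl1, Cxcl2 and Cxcl3 lie together on chromosome 5 in a run of 7 genes, all CXC chemokines, in the order Cxcl5, Ppbp, Pf4, Cxcl3, Cxcl15, Cxcl1, Cxcl2. The platelet chemokine genes of the run spanned a narrow range, as Pf4 stood at 7.34 to 7.81 and Ppbp at 0.13 to 0.93 over the 8 arrays. With Ecrg4(71-132) against Fc, Pf4 differed by -0.01 in each set, while Cxcl3, its neighbour, differed by 2.14 in set 1 and 4.99 in set 2. Cxcl5, another CXCR2 ligand gene, was well above background on 6 arrays, and its log2 difference was 0.93 in set 1 and -0.01 in set 2. Cxcl15 was not well above background on any array. The flanking gene Mthfd2l, a mitochondrial folate enzyme gene, stood at 0.39 to 1.18 on all arrays.

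**Figure D4:**
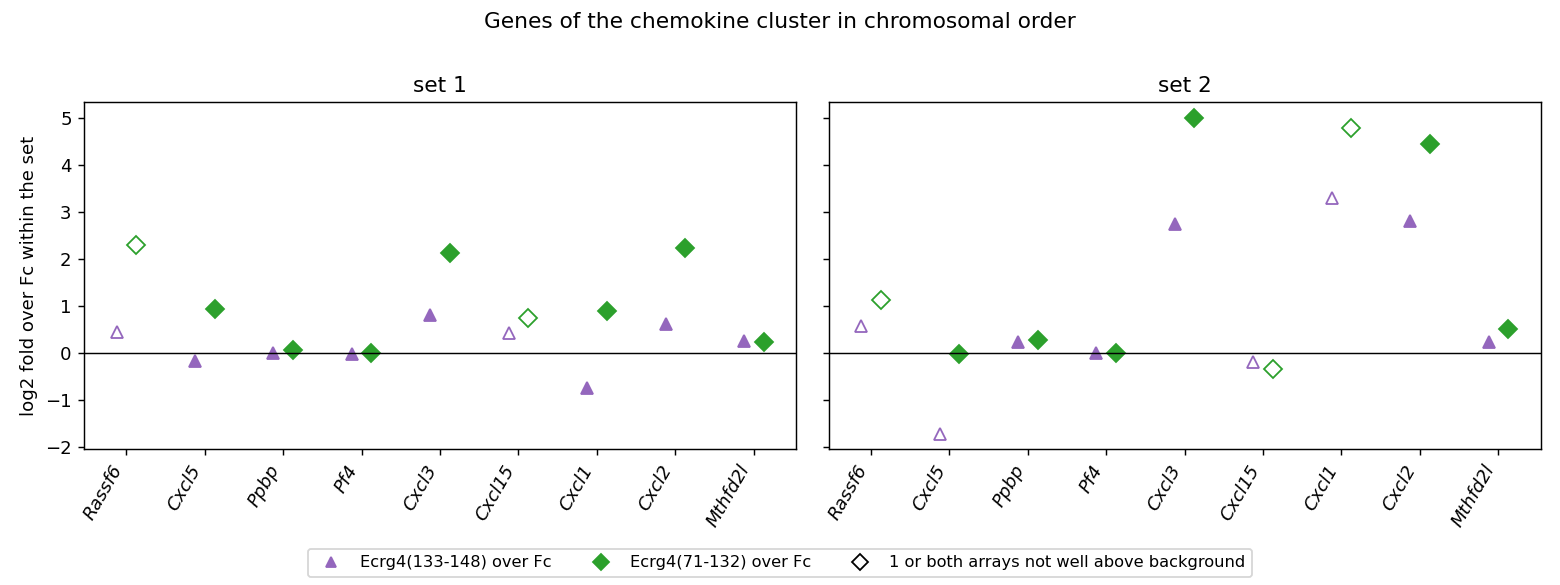
Log2 fold over Fc (vertical axis) of the genes of the chromosome 5 chemokine run and the 2 genes flanking it, in chromosomal order, in set 1 (left) and set 2 (right). Triangles are Ecrg4(133-148), diamonds are Ecrg4(71-132), and open symbols rest on 1 or 2 arrays that were not well above background. With Ecrg4(71-132), Cxcl3 lies at 2.14 in set 1 and 4.99 in set 2 and Pf4 beside it at -0.01 in both sets.

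As a list, 5 of 6 CXCR2 ligand genes were measured, and none passed limma's test. With Ecrg4(71-132) against Fc, 4 were higher in both sets (28.5% of all genes) and none lower (36.4%). The list's median log2 difference was 2.85 with dim arrays as measured and 1.94 with them at their bounds, beside -0.02 over all genes. Both medians are the value of Cxcl1, which was kept through its fragment arrays, so nothing is read from them. Of the 5 genes, 3 are members. The others, Cxcl5 and Ppbp, averaged 0.46 and 0.17 over the sets. Of the other CXC and CX3C chemokine genes, 6 of 10 were measured, 3 higher (28.5% of all genes) and 2 lower (36.4%) in both sets. The 3 include Cxcl12, which passed the filter on dim probes through Ecrg4(71-132) only, so nothing is read from its direction. Cxcl10, which attracts T cells through CXCR3, stood at 6.33 with Ecrg4(133-148), 7.79 with Ecrg4(71-132), 6.60 with Fc and 5.35 with PBS in set 1, and at 1.38, 3.13, -0.75 and -0.48 in the same order in set 2. Cxcl14 stood at 3.53 to 4.19 on all 8 arrays. Cxcl9, Cxcl13 and Cxcl17 were not well above background on any.

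The receptors for the CXCR2 ligands were near or below the limit of detection in these cells. Cxcr2 was not well above background on any array, and Cxcr1 on 1 array, that of PBS in set 2. Of 11 neutrophil markers 10 were on the array, and besides Cxcr2 the granule genes Mpo and Ltf and the secreted factor gene Retnlg were not well above background on any. S100a8, Elane, Camp and Csf3r were on all 8. The summed signal of the list was 95.4 to 103 in set 1 and 129 to 134 in set 2. These 4 genes went different ways with Ecrg4(71-132) against Fc on the log2 scale. Camp, the cathelicidin gene, differed by 0.90 in set 1 and 3.21 in set 2, and S100a8, a calprotectin subunit gene, by 0.06 and 0.45. Elane, the neutrophil elastase gene, differed by -0.55 and -0.07, and Csf3r, the G-CSF receptor gene, by -0.10 and -0.04.

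Among genes that act on transcription of the CXCR2 ligands, differences were smaller. Of 13 such genes, which include the inhibitor gene Nfkbia, 12 were measured. With Ecrg4(71-132) against Fc, 9 were higher in both sets (28.5% of all genes) and 1 lower (36.4%). The median log2 difference over the 12 was 0.60, beside -0.02 over all genes. Nfkbiz, a nuclear co-activator of NF-kB target genes, was higher by 1.39 in set 1 and 2.36 in set 2. The NF-kB subunit gene Nfkb1 was higher by 0.52 and 1.94, and Nfkbia, the inhibitor that NF-kB itself induces, by 0.41 and 1.17. Fos, an AP-1 subunit gene, was lower by 0.23 and 0.69. With Ecrg4(133-148) against Fc, 5 of the 12 were higher in both sets (28.5% of all genes) and 1 lower (30.6%), with a median of 0.23.

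Genes that control the decay of CXCR2 ligand mRNA were all measured, 10 of 10. With Ecrg4(71-132) against Fc, 7 were higher in both sets (28.5% of all genes) and 2 lower (36.4%), with a median log2 difference of 0.25. Zc3h12a, which encodes the endonuclease Regnase-1, was higher by 0.90 in set 1 and 2.10 in set 2. Traf3ip2, an adaptor that stabilises Cxcl1 mRNA, was higher by 0.38 and 0.57, and Zfp36l2, a gene of the tristetraprolin family that shortens mRNA life, was lower by 0.49 and 0.51. Among other genes of neutrophil recruitment, 12 of 15 were measured and 11 were higher in both sets (28.5% of all genes). The median over the 12 was 2.73, or 2.57 with dim arrays at their bounds. Il1b was higher by 3.01 and 5.95, and Csf3, which encodes the granulocyte growth factor G-CSF, was not well above background on 2 of 8 arrays. With Ecrg4(133-148) against Ecrg4(71-132), 11 of the 12 were lower in both sets (23.7% of all genes), with a median of -1.55. Csf3 and Vcam1, of the same list, passed the filter on dim probes through their fragment arrays only, and Csf2 through those of Ecrg4(71-132) only. Nothing is read from the part of Csf2, Csf3 and Vcam1 in these counts and medians. None of the genes of these lists passed limma's test, and the lists were drawn up with earlier results of these data known.

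After the mean of each set was subtracted, Cxcl2 and Cxcl3 correlated at 0.99 over the 8 arrays, Cxcl16 and Cxcl3 at 0.93, and Cxcr4 and Cxcl2 at -0.83. Among 1037 other genes well above background on all arrays and with a range of at least 1 on that scale, the highest correlations with Cxcl2 were those of Tnf (0.998), Junb (0.996) and Il1b (0.996). With Cxcl3 they were those of Tnip1 (0.998), Junb (0.997) and Dusp16 (0.996). None is given for Cxcl1, because 2 of its arrays were dim. Skil (0.996), Marcks (0.996) and Orai2 (0.993) were closest to Cxcl16, and Cul9 (0.971), Fbxo32 (0.966) and Frat1 (0.957) to Cxcr4. These are descriptions over 8 arrays that share their treatments and sets. The gene nearest to Cxcr4 was less close to it than the nearest genes of Cxcl2, Cxcl3 and Cxcl16 were to theirs. Tnf stood at 4.69 with Ecrg4(133-148), 6.07 with Ecrg4(71-132), 4.32 with Fc and 3.32 with PBS in set 1, the order of Cxcl2.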

How the data were processed

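Each of 8 Cy3-labelled RNA samples, 2 per treatment, was measured on its own array of 1 slide. The deposited scanner files hold intensity values and their local background. The submitters' processing notes name Agilent Feature Extraction 11.0.1.1. The deposited log2 table of the same arrays correlated at 1 with the scanner values on each array, with column medians of -4.48 to -4.21. It was used as an alternative, and its centring is unknown.

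Non-control spots of the background-subtracted processed signal were scaled to the 75th percentile of each array and taken to log2. Outlying spots were left out and spots of a probe averaged. A probe entered the fit when the 2 arrays of any treatment were both well above background, and genes with several such probes were represented by the brightest. Symbols came from RefSeq accessions for 28026 probes, and the other 27655 kept their name in the array file, with no symbol. Of the 19120 genes tested, 12597 had a symbol. The rest are entries under the array file's name, and shares over all genes include them. limma 3.58.1 in R 4.3.3 fitted 1 mean per group over all 8 arrays, with Benjamini-Hochberg adjustment over 19120 genes at 0.05. The fit was tested on simulated data.

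The set numbers in the titles were taken as pairs. Differences of set 2 from set 1 correlated across genes at 0.783 to 0.862 between treatments. The set as a block, other background corrections, normalizations and filters, the mean of probes, and leaving out each array were tried.

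The genes named are the members, genes of fixed lists of chemokines, receptors, regulators and cell type markers, and the 3 genes most like each member but Cxcl1. The members and lists were chosen with earlier results of these data known. Precision is limited by the number of arrays.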

Additional observations from a re-analysis of the deposited data

Results flagged for a closer look

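For 2 genes the array pairs of the 2 sets lay on opposite sides of 0 under the same comparison, and the difference between the sets was not tested. For Cxcl1 the log2 difference of Ecrg4(133-148) from Fc was -0.74 in set 1 and at least 1.49 in set 2. Its difference of Ecrg4(133-148) from PBS was -1.43 in set 1 and at least 2.41 in set 2. The Fc and PBS arrays of set 2 were not well above background for Cxcl1, so the values for set 2 are bounds against the lowest signal well above background on those arrays. For Cxcl16 the log2 difference of Ecrg4(133-148) from Fc was -0.41 in set 1 and 0.67 in set 2, with every array well above background. Opposite directions in the 2 sets were found for 41.0% of all genes for Ecrg4(133-148) against Fc and 39.9% for Ecrg4(133-148) against PBS.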

How the results depend on the processing

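Over 10 alternatives to the processing (normexp on the median signals, the offset alone, quantile normalization, median scaling, no filter, a filter on all arrays, the mean of probes, trend and robust moderation, the deposited log2 table and the replicate block), no member fold changed direction or passed limma's threshold, and no gene was called in any comparison. The difference of Fc from PBS for Cxcl1, with both set 2 arrays dim, was not counted. The offset alone was chosen after seeing the data. Cxcl1 has no value under the filter on all arrays. With normexp the log2 difference of Cxcl1 for Ecrg4(71-132) against PBS within set 2 was 2.34, below the bound of 3.91 on the scale with no offset, and over both sets it was 1.23 for Ecrg4(71-132) and 0.017 for Ecrg4(133-148) against PBS. With the offset alone these values were 2.37, 1.29 and 0.042. The replicate block changed no call.

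Leaving out 1 array turned the direction of a member fold 19 times. The lone array was then assumed to vary like the other groups. Without the block, Cxcl1 spanned -1.08 to 3.64 for Ecrg4(133-148) against Fc, -1.77 to 4.05 for Ecrg4(133-148) against PBS and -0.20 to 5.62 for Ecrg4(71-132) against PBS, its dim arrays entering as measured. Cxcl16 spanned -0.28 to 0.54 for Ecrg4(133-148) against Fc and -0.028 to 0.79 for Fc against PBS. Cxcr4 spanned -1.27 to 0.20 for Ecrg4(133-148) against Fc, -0.38 to 1.1 for Ecrg4(133-148) against Ecrg4(71-132) and -0.99 to 0.36 for Fc against PBS. With the replicate block none of these 3 turned, at -0.66 to -0.41, 0.23 to 0.49 and -0.55 to -0.081. With the block, Cxcl1 spanned -0.27 to 2.83 for Ecrg4(133-148) against Fc and -0.73 to 3.01 for Ecrg4(133-148) against PBS, where it stood at -0.41 without the set 2 Ecrg4(133-148) array. Cxcl16 spanned -0.39 to 0.65 for Ecrg4(133-148) against Fc, at -0.069 without the set 2 Ecrg4(133-148) array, and -0.14 to 0.90 for Fc against PBS, at -0.064 without the set 2 PBS array. Cxcl3 spanned -0.37 to 2.18 for Fc against PBS. Why these turned was not tested.

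With the block and the set 1 array of Ecrg4(71-132) left out, 482 genes passed for Ecrg4(71-132) against Fc and 1078 against PBS, none of them a member. Without the set 1 Fc array 1 gene passed against Fc, and without the set 1 PBS array 3 genes passed against PBS. The lowest adjusted p of a member in these fits was 0.0622. Signal near background leaves bounds for Cxcl1 against the controls of set 2.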
